A study of Mus musculus with 8 samples.

Results

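The epidermal growth factor (EGF) receptor family and its ligands were examined as 10 genes in murine prostate tumors. These are the 4 receptor genes Egfr, Erbb2, Erbb3 and Erbb4 and the 6 ligand genes Egf, Areg, Ereg, Tgfa, Hbegf and Nrg1. The genes were taken by their symbols alone, and all 10 were found among the 38115 genes listed for each tumor. RNA-seq was performed on 8 tumors grown from Myc-CaP, a prostate cancer cell line from a mouse that carries a c-Myc transgene under a prostate-directed, androgen-responsive promoter, so that tumors of every group carry it. Androgen sensitive (AS) or castrate resistant (CR) Myc-CaP cells were grafted orthotopically, in the anterior lobe of the prostate, and the male FVB hosts were either intact or castrated before the graft. The labels give no age and do not say which host each tumor had, nor the organ of each metastasis. There were 4 primary tumors (2 AS and 2 CR) and 4 metastatic tumors (2 AS and 2 CR), which are named here by type, phenotype and a number that carries no pairing.

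The AS and the CR tumors each came from 1 cell line, so a difference between the phenotypes cannot be told apart from a difference between these lines. The metastases are described as matched to primary tumors, but the pairs are not given, and a metastasis and a primary tumor of the same phenotype may share a mouse, which would make p-values of the phenotype comparison too small. No source states that the replicates came from separate cell cultures, so the p-values measure the spread between these tumors. Total counts ranged from 20905806 in metastatic CR2 to 91886163 in metastatic AS2, and the CR tumors included the 3 smallest libraries. Of the lineage markers examined, Hoxb13 was at 6.15 to 48.2 CPM. The epithelial markers Epcam, Cdh1, Krt18 and Cldn7 and the prostate markers Pbsn and Tmprss2 were under 1 CPM in every tumor, so several markers that define a luminal prostate cell were absent or nearly so, although Krt18 has near-identical copies in the genome whose reads unique mapping discards. CPM are read counts relative to the library size, which was scaled by TMM factors, and SE is the standard error of a log2 fold change.

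The receptors of this family are tyrosine kinases at the cell surface that pair with one another when a ligand binds. Erbb2 binds no known ligand and acts as the favoured partner of the others, Erbb3 has a weak kinase and signals through its partner, and Erbb4 is an active kinase bound by neuregulins. The ligands are made as membrane proteins and cut loose by proteases, and the signal runs mainly through the RAS to ERK and the phosphoinositide 3-kinase to AKT cascades. In the prostate, growth factors of this family come from epithelial and stromal cells, and their signalling is a long-studied partner of androgen signalling.

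In mm10 coordinates of GENCODE M21, Egfr lies on chromosome 11 from 16752203 to 16918158 and Erbb2 on the same chromosome from 98412470 to 98437716, both on the plus strand. The bases upstream of their starts are shown because these receptor genes had phenotype fold changes of opposite sign, of which only that of Erbb2 was significant. Those of Areg are shown because that ligand gene was read in only 1 tumor. RefSeq promoter windows in GRCm38.p6 were matched for 6 of the 10 genes. Of the 250 bases before each start, those upstream of the first annotated exon are printed, and the capitals mark every match to a searched motif on either strand.
Egfr, chr11:16751953-16752202, plus strand: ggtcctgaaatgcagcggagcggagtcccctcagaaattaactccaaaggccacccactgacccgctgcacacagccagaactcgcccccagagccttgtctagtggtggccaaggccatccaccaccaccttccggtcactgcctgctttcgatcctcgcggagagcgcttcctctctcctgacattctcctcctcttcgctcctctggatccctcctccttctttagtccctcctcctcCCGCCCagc
Erbb2, chr11:98412234-98412469, plus strand: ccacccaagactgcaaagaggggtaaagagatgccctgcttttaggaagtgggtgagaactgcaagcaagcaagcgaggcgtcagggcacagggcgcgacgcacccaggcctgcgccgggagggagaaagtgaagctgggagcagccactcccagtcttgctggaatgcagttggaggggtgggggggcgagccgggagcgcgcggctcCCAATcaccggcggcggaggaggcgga
Areg, chr5:91139349-91139598, plus strand: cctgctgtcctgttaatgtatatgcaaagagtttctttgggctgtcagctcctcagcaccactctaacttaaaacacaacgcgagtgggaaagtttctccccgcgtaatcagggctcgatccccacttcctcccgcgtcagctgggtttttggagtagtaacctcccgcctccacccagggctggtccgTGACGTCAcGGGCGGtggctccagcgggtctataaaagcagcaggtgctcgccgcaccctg

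The motifs searched were the cyclic AMP response element TGACGTCA, the Myc E-box CACGTG, the GC box GGGCGG, the AP-1 site TGACTCA and the CAAT box CCAAT, on both strands. The Egfr window held 1 GC box, 9 bases before the start, and the Erbb2 window held 1 CAAT box, 41 bases before the RefSeq start. The Areg window held a cyclic AMP response element 61 bases before the start and a GC box 52 bases before it, and these matches did not overlap. Among 32851 promoter windows of 250 bases, 1.55% held the cyclic AMP response element, 32.7% a GC box and 33.8% a CAAT box. The letters of the E-box (in 6.02% of windows) and the AP-1 site (4.46%) were in none of the 6 matched windows. A match is a match of letters and was not tested as a binding site.

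The receptors were ordered Erbb3, Erbb2, Egfr and Erbb4 from the highest to the lowest median level per kilobase of exon. On this scale of CPM per kilobase, Erbb3 was at 7.20 to 14.6, Erbb2 at 3.31 to 12.9, Egfr at 0.57 to 7.36 and Erbb4 at 0.000995 to 0.036. Erbb3 was above Erbb2 in 8 of 8 tumors, although the ranges of these neighbours overlapped. Of the ligands, Hbegf was at 0.343 to 1.80, Tgfa at 0.472 to 0.848 and Egf at 0.049 to 0.219 CPM per kilobase. The ranges of Hbegf and Tgfa overlapped, and Hbegf was above Tgfa in every tumor but primary CR2 (0.343 against 0.579 CPM per kilobase). Ereg reached 0.118, Nrg1 0.00782 and Areg 0.0211 CPM per kilobase at the highest.

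**Figure D1:**
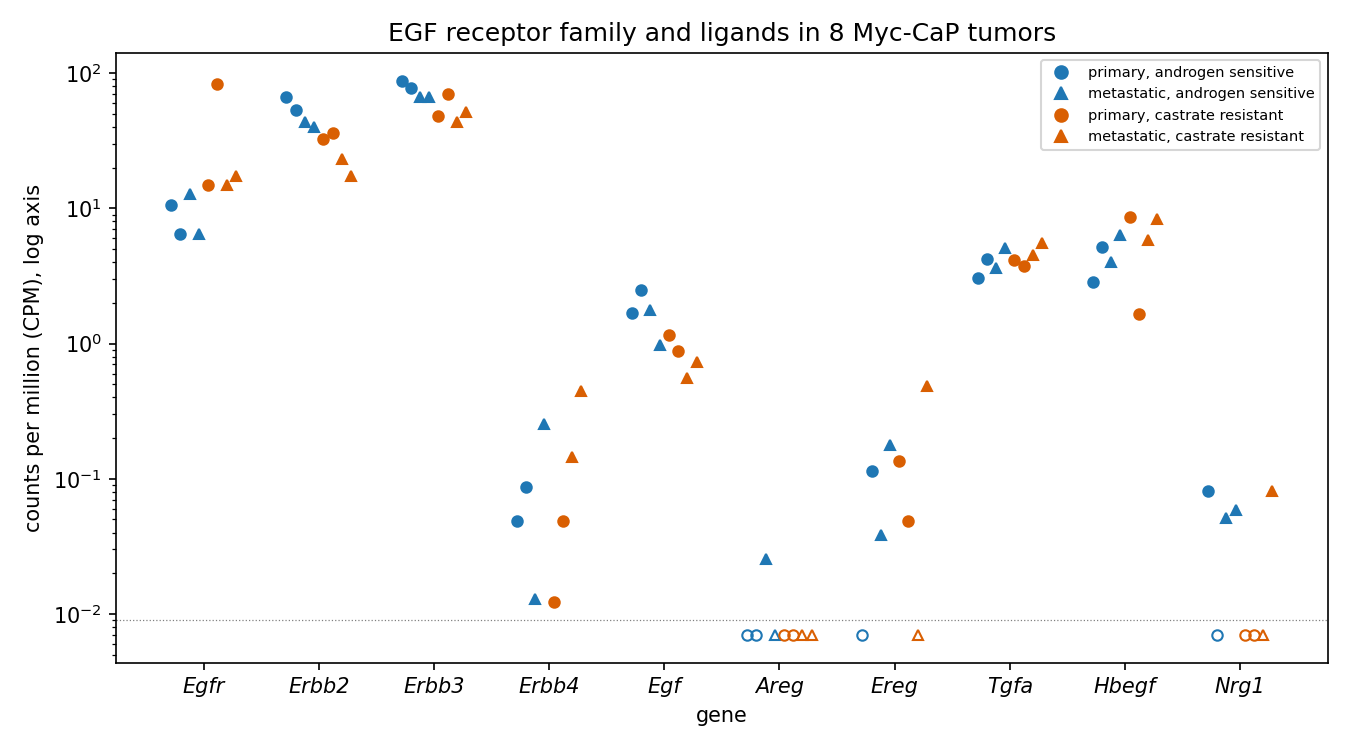
CPM of the 10 genes in each of the 8 tumors, on a log axis. Circles are primary and triangles metastatic tumors, blue is androgen sensitive and orange castrate resistant, and open symbols under the dotted line are tumors with 0 counts; Erbb3 lies above the other members in every tumor but primary CR2, and Egfr in primary CR2 (83.4 CPM) lies far above Egfr in the other 7 tumors.

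The phenotype comparison, CR against AS tumors, asked how the family differed between the phenotypes. Erbb2 mRNA was lower in CR tumors by 1.91-fold and was the only member to pass the test. Erbb3 and Egf had negative fold changes and Egfr a positive one, none of which passed. The quasi-likelihood test of edgeR was run over 18889 genes with tumor type as a covariate, and p-values were adjusted by Benjamini-Hochberg. Of the 10 members, 8 passed the filter on low counts and 1 of these was called (0 higher and 1 lower), where 10.1% of all genes tested were called, 4.76% higher and 5.29% lower. At an unadjusted p under 0.05, 4 of the 8 members were found (1 higher and 3 lower), against 27.1% of all genes tested (13.0% higher and 14.1% lower). The median log2 fold change was 0.16 over the 8 members tested and 0.00 over all genes tested.

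Erbb2, the receptor with no known ligand, was at 67.0 and 53.8 CPM in primary AS1 and AS2 and at 43.8 and 40.1 CPM in metastatic AS1 and AS2. It was at 32.6 and 35.9 CPM in primary CR1 and CR2 and at 23.1 and 17.2 CPM in metastatic CR1 and CR2. Every AS tumor was above every CR tumor, a separation that 17.5% of all genes tested also showed in either direction (9.51% with the CR tumors lower). The mean was 51.2 ± 12.0 CPM in AS and 27.2 ± 8.59 CPM in CR tumors (SD, n = 4 each). The log2 fold change was -0.94 (SE 0.16, edgeR adjusted p = 0.0114). The direction was the same in all 16 alternatives run, with log2 fold changes between -1.04 and -0.80, and the adjusted p was 0.0569 without metastatic AS1, 0.0502 within metastatic tumors and 0.436 within primary tumors. Within metastatic tumors 5.49% and within primary tumors 0.0233% of all genes were called.

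Egfr, the receptor of EGF, TGF-alpha and amphiregulin, was at 10.6 and 6.47 CPM in primary AS1 and AS2 and at 12.7 and 6.45 CPM in metastatic AS1 and AS2. It was at 15 CPM in primary CR1, 83.4 CPM in primary CR2, 14.9 CPM in metastatic CR1 and 17.4 CPM in metastatic CR2. The phenotypes did not overlap, as for 8.01% of all genes with the CR tumors higher, but the gap between 12.7 and 14.9 CPM was narrow and primary CR2 alone was far above the rest. The log2 fold change was 1.64 (SE 0.58, edgeR adjusted p = 0.104) and was not significant. Without primary CR2 it was 0.78 with an adjusted p of 0.155, so this 1 library set more of the fold change than any other. Without primary CR1 the adjusted p was 0.0374. The value of primary CR2 rests on 1707 counts, the most of any tumor, in the second smallest library.

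Erbb3, the kinase-impaired partner of Erbb2, was at 87.9 and 77.4 CPM in primary AS1 and AS2 and at 66.9 and 66.7 CPM in metastatic AS1 and AS2. It was at 48.1, 70.5, 43.3 and 51.8 CPM in primary CR1, primary CR2, metastatic CR1 and metastatic CR2. Primary CR2 lay within the range of the AS tumors and the other CR tumors lay under it. The log2 fold change of -0.49 (SE 0.16) had an edgeR adjusted p of 0.0933, and it stayed negative in all 16 alternatives, between -0.61 and -0.42, without passing in any. Erbb4 had 1 to 26 counts per tumor, with the highest count in metastatic AS2 and the highest level, 0.445 CPM, in metastatic CR2. Its log2 fold change of 0.15 had an SE of 1.13, so no difference was detectable at this depth.

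Among the ligands, Egf itself was at 1.68, 2.47, 1.77 and 0.971 CPM in primary AS1, primary AS2, metastatic AS1 and metastatic AS2. In the same order of CR tumors it was at 1.16, 0.879, 0.553 and 0.729 CPM. Only metastatic AS2 of the AS tumors fell within the CR range. The log2 fold change was -1.05 (SE 0.32, edgeR adjusted p = 0.0669). It was called without primary CR1 (edgeR adjusted p = 0.0439) and by DESeq2 (adjusted p = 0.0259). Egf counts were 18 to 172 per tumor, and 3 antisense genes annotated over it are not among the listed genes.

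Hbegf, a heparin-binding ligand of Egfr and Erbb4, was at 2.84, 5.19, 4 and 6.39 CPM in primary AS1, primary AS2, metastatic AS1 and metastatic AS2, and at 8.70, 1.66, 5.88 and 8.34 CPM in the CR tumors in the same order. Both the lowest and the highest value were in primary CR tumors. Its log2 fold change of 0.42 (SE 0.45, edgeR adjusted p = 0.586) became -0.18 without primary CR1. Tgfa, whose product binds Egfr, was the steadiest of the members that could be tested, at 3.06 to 5.08 CPM in AS and 3.76 to 5.50 CPM in CR tumors. Its log2 fold change was 0.16 (SE 0.22, edgeR adjusted p = 0.683).

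The remaining 3 ligands were near or under the limit of these libraries. Ereg, which encodes epiregulin, had 0, 8, 3 and 18 counts in primary AS1, primary AS2, metastatic AS1 and metastatic AS2 and 11, 1, 0 and 12 counts in the CR tumors in the same order. Its log2 fold change of 0.94 had an SE of 1.18 and an edgeR adjusted p of 0.652. Areg, which encodes amphiregulin, had 2 counts in metastatic AS1 and 0 in the other 7 tumors, where a count of 0 allows 0.0294 to 0.146 CPM (3 counts of each library, for counting error only). Nrg1, a neuregulin that binds Erbb3 and Erbb4, had 5, 4 and 6 counts in primary AS1, metastatic AS1 and metastatic AS2, 2 in metastatic CR2 and 0 in the others. Areg and Nrg1 did not pass the filter on low counts and were not tested.

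**Figure D2:**
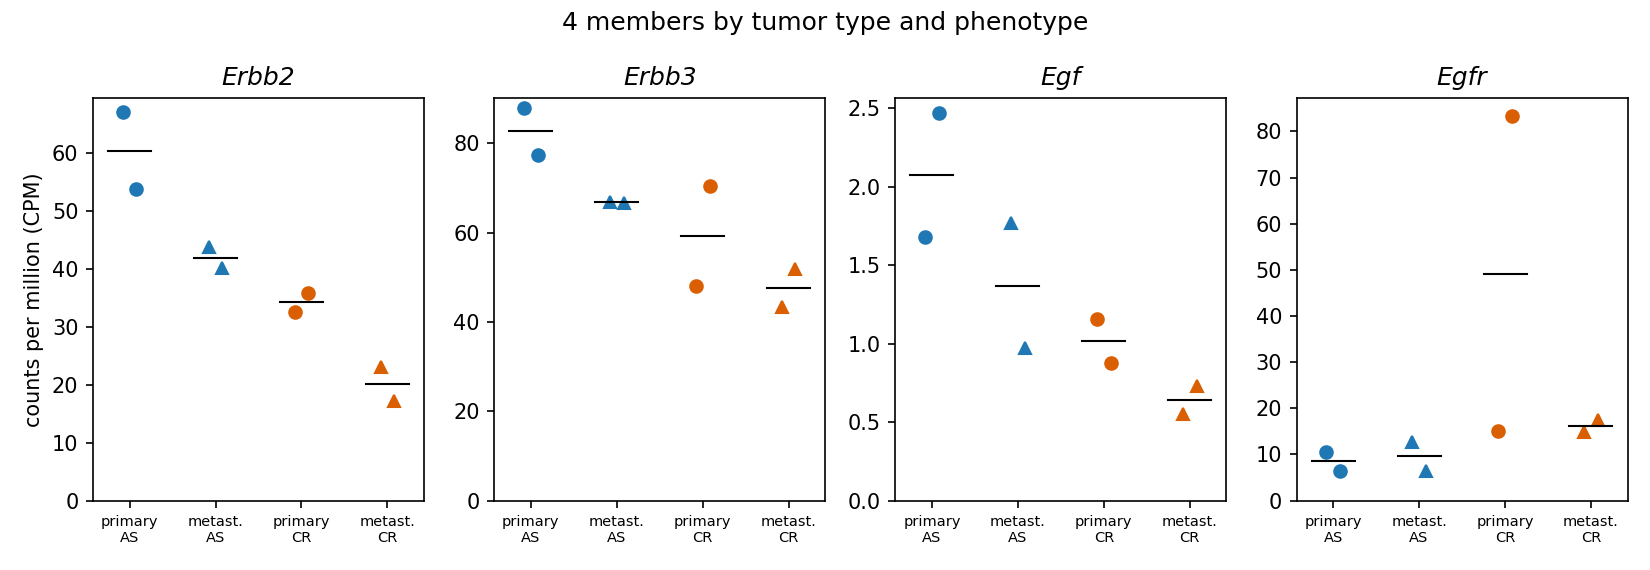
CPM of Erbb2, Erbb3, Egf and Egfr by tumor type and phenotype, with 2 tumors in each group and a line at their mean. In Erbb2 every CR tumor lies under every AS tumor, with 17.2 to 35.9 against 40.1 to 67.0 CPM, and the Egfr mean of primary CR tumors is raised by 1 tumor at 83.4 CPM.

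The make-up of the receptor transcripts differed with these levels. Of the summed receptor level per kilobase, Egfr made up 3.28, 2.41, 5.42 and 2.94% in primary AS1, primary AS2, metastatic AS1 and metastatic AS2, and 8.52, 28.3, 10.2 and 11.4% in the CR tumors in the same order. Erbb2 made up 39.7 to 45.3% in AS and 24.5 to 40.2% in CR tumors, and Erbb3 51.4 to 57.2% and 45.1 to 63.8%. The ratio of Egfr to Erbb2 per kilobase was 0.0554 to 0.133 in AS and 0.212 to 1.07 in CR tumors, so the lowest CR tumor was above the highest AS tumor. These shares and ratios restate the levels above within each tumor and were not tested separately. Across the 8 tumors, Erbb2 and Erbb3 had a Pearson correlation of 0.856 in log2(CPM + 1), Erbb2 and Egf one of 0.808, and Erbb2 and Egfr one of -0.312, given as descriptions over tumors that share lines and library depth.

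Of the ligands that were not members, betacellulin (Btc), which binds Egfr and Erbb4, was the highest. It was at 20.3, 34.7, 32.9 and 35.0 CPM in primary AS1, primary AS2, metastatic AS1 and metastatic AS2 and at 10.5, 19.6, 7.74 and 24.9 CPM in the CR tumors in the same order. Btc made up 72.2 to 74.8% of the summed ligand level per kilobase in AS tumors and 38.0 to 70.0% in CR tumors. Its log2 fold change of -0.97 (SE 0.36, edgeR adjusted p = 0.124) was not significant, although it passed with no filter on low counts (adjusted p = 2.2e-04). Hbegf made up 5.55 to 31.6%, Nrg4 5.30 to 17.5% and Tgfa 5.75 to 15.4% of the ligand level over the 8 tumors.

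**Figure D3:**
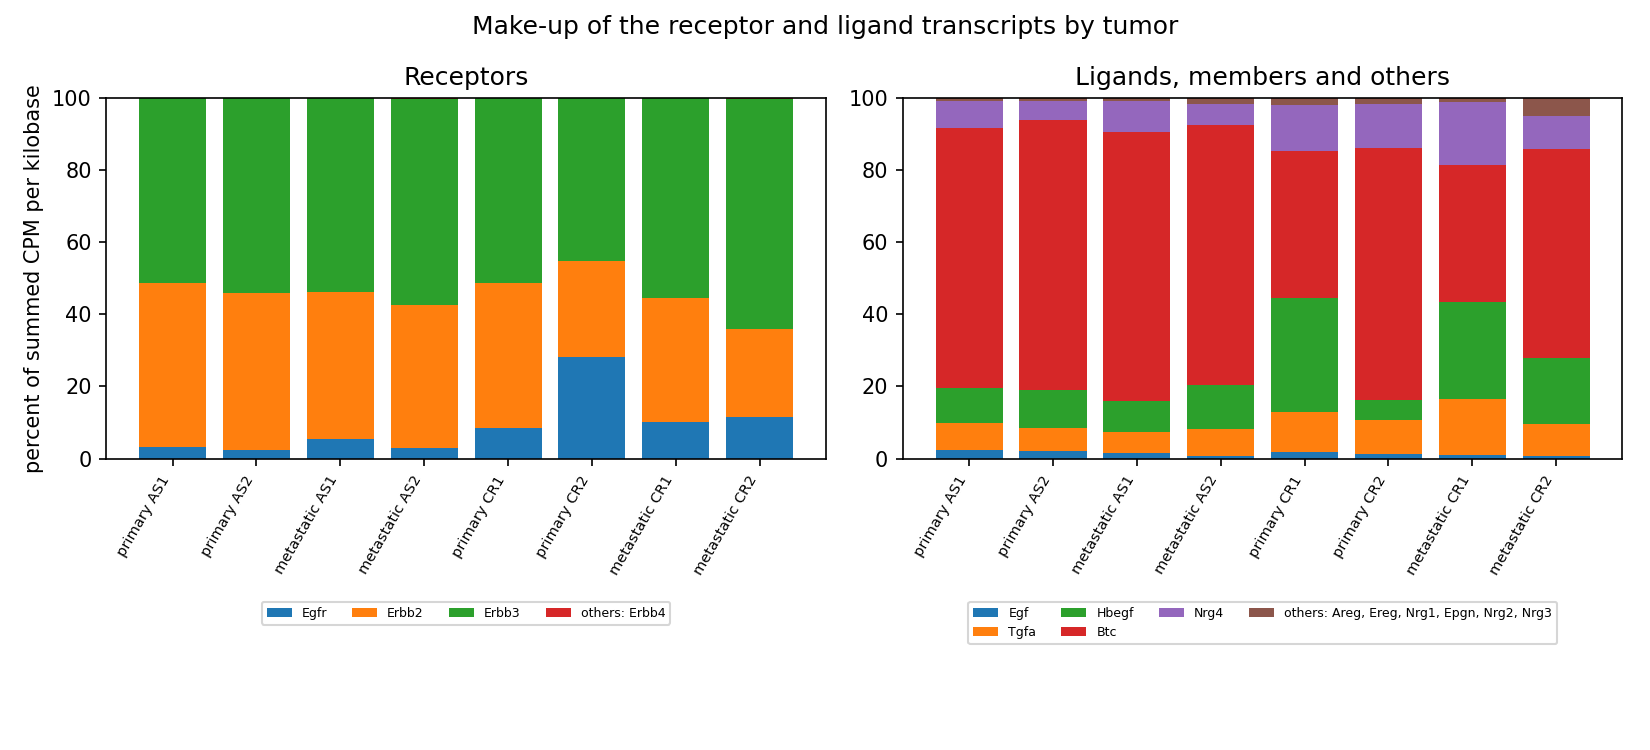
Share of each gene in the summed CPM per kilobase of the 4 receptors (left) and of the 6 member ligands with 5 other ligands of the family (right), as percent, 1 bar per tumor. Egfr makes up 2.41 to 5.42% of the receptor level in AS and 8.52 to 28.3% in CR tumors, and Btc is the most abundant ligand transcript in all 8 tumors.

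The other genes of the pathway were grouped by role in lists of 83 genes, of which 78 were tested in the phenotype comparison. CR tumors had 3 of them higher and 3 lower at an adjusted p under 0.05, a smaller share than the 10.1% of all genes called (4.76% higher and 5.29% lower). At an unadjusted p under 0.05 there were 20 of the 78 (6 higher and 14 lower), against 27.1% of all genes (13.0% higher and 14.1% lower). Neither total stood above the background. By direction, the 6 higher genes were a smaller share than among all genes and the 14 lower genes a somewhat larger one, which was not tested. The median log2 fold change of the 78 was -0.08, against 0.00 over all genes. Of 17 genes that attenuate the receptors, 15 were tested and 2 were called, both higher, where 10.1% of all genes were called. At an unadjusted p under 0.05, 2 were higher and 4 lower. Sh3kbp1, an adaptor that links the ubiquitin ligase Cbl to receptor endocytosis, was at 6.38 to 9.03 CPM in AS and 17.4 to 40.3 CPM in CR tumors (log2 fold change 1.61, SE 0.27, edgeR adjusted p = 0.0114). Errfi1, also called Mig-6, an inhibitor of the receptor kinases, was at 102 to 197 CPM in AS and 212 to 279 CPM in CR tumors (log2 fold change 0.79, SE 0.21, edgeR adjusted p = 0.0495). The call of Errfi1 was lost in 10 of 16 alternatives.

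Of 30 adaptors and effectors, all were tested, 1 was higher and 2 were lower, about the 10.1% of all genes. Grb7, an adaptor that binds Erbb2 and other receptors, was at 1.16 to 2.04 CPM in AS and 4.59 to 11.4 CPM in CR tumors (log2 fold change 2.11, SE 0.32, edgeR adjusted p = 0.00799). Stat5a and Stat5b, neighbouring genes for transcription factors that receptor kinases activate, were lower in CR tumors, by 1.12 (SE 0.25, edgeR adjusted p = 0.028) and 0.79 (SE 0.16, edgeR adjusted p = 0.0218) on the log2 scale. Stat5a was at 24.1 to 44.4 CPM in AS and 8.14 to 17.2 CPM in CR tumors, and Stat5b at 51.8 to 71.2 and 28.9 to 39.7 CPM. The 2 genes are near-identical copies over parts of their length, where unique mapping lowers counts, by an amount that was not measured. The call of each was lost in 8 of 16 alternatives.

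Of 15 induced targets of the pathway, 14 were tested and 1 was called (0 higher and 1 lower). Of all genes, 10.1% were called, 4.76% higher and 5.29% lower. Phlda1, an early response gene, was at 7.28 to 19.0 CPM in AS and 2.09 to 4.88 CPM in CR tumors (log2 fold change -1.68, SE 0.41, edgeR adjusted p = 0.035), a call lost in 7 of 16 alternatives. None was called among the 7 shedding proteases and their regulators (7 tested), the 9 ERK feedback genes (9 tested) or the 5 other ligands (3 tested). At an unadjusted p under 0.05, edgeR gave 1, 0 and 1 of these genes, against 27.1% of all genes tested.

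**Figure D4:**
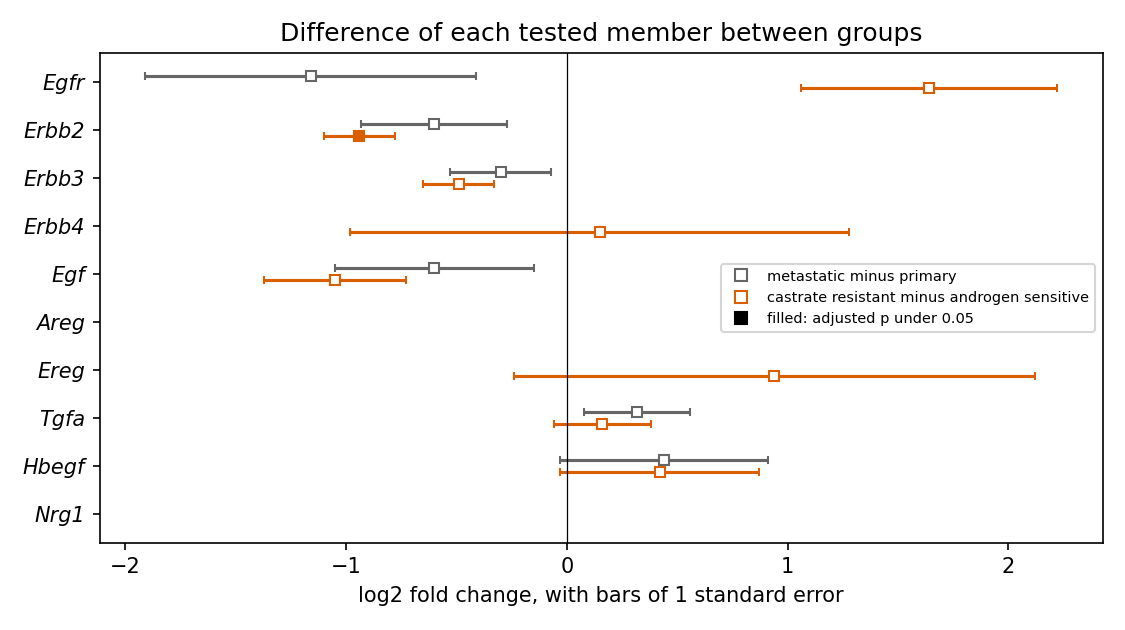
Log2 fold change of each tested member with 1 SE, for metastatic minus primary (grey, 4 against 4 tumors) and castrate resistant minus androgen sensitive (orange, 4 against 4 tumors). The filled symbol, Erbb2 at -0.94 in the phenotype comparison, is the 1 value with an adjusted p under 0.05. Areg and Nrg1 have no value because they were not tested, and Erbb4 and Ereg were tested only in the phenotype comparison.

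Markers of other cells were read beside these results. The summed level of 6 luminal markers was 39.1 to 171 CPM in AS and 282 to 856 CPM in CR tumors and came from Krt8 and Krt19, since the other 4 were under 1 CPM in every tumor. Of these 6, 5 were tested and Krt19 was called higher in CR tumors. Of the Schwann cell markers, Mbp was higher in CR tumors (log2 fold change 1.46, SE 0.37, edgeR adjusted p = 0.0388), and Sox10 and S100b were under 1 CPM in every tumor. By the same test 10.1% of all genes were called, 4.76% higher and 5.29% lower, so single called markers are not read as a change of cell types. Other markers were lower in CR tumors. These were the basal marker Trp63 (log2 fold change -1.82, edgeR adjusted p = 0.0319), the prostate secretory gene Msmb (0 to 6.77 CPM, 0.0257), the skeletal muscle gene Tnnt3 (-2.15, 0.0163) and the liver gene Ttr (-1.33, 0.0488). Tnnt3 and Ttr each overlapped between the phenotypes. Of the other muscle markers tested, Acta1 was at 1.20, Ckm at -1.35 and Mylpf at -0.19 on the log2 scale, and the liver marker Alb was at 1.34, none called. The summed muscle markers overlapped (3.51 to 15.2 CPM in AS and 1.56 to 15.6 CPM in CR tumors), as did the liver markers (3.74 to 26.1 and 5.24 to 7.42 CPM). The 4 basal markers together overlapped, at 93.4 to 412 CPM in AS and 16.5 to 439 CPM in CR tumors, with Krt5 and Krt14 under 1 CPM in every tumor. The 8 fibroblast markers overlapped (52.8 to 90.3 CPM in AS and 50.7 to 109 CPM in CR tumors), and so did the 6 macrophage markers (292 to 392 and 142 to 345 CPM). In primary CR2, where Egfr was highest, the fibroblast markers summed to 84.9 CPM and the macrophage markers to 345 CPM, both within the range of the other tumors. The proliferation markers were at their lowest there, 70.9 CPM against 75.5 to 327 CPM. Smooth muscle (4.98 CPM) and skeletal muscle markers (1.56 CPM) were also at their lowest in primary CR2, and kidney (6.10 CPM) and lung markers (0.83 CPM) at their highest. The part of the luminal, basal, secretory, muscle, liver, kidney, lung, Schwann cell and proliferation markers in the results was not tested. In bulk tumors, fewer cells of a type and less RNA per cell cannot be told apart.

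The genes beside Erbb2 on chromosome 11 were also examined, a choice made after the Erbb2 values were seen. Of 8 tested protein-coding genes within 50 kb of Erbb2, itself included, 3 were lower and 1 was higher in CR tumors, where 5.29% and 4.76% of all genes were; the region was chosen for Erbb2, so nothing is read from this count. Mien1, whose 3′ end overlaps that of Erbb2 on the opposite strand, was at 39.7 to 48.9 CPM in AS and 11 to 24.4 CPM in CR tumors (log2 fold change -1.49, SE 0.18, edgeR adjusted p = 0.00447). Pgap3, which starts 23.8 kb before Erbb2, was at 9.69 to 13.2 and 3.20 to 9.33 CPM (log2 fold change -0.90, SE 0.23, edgeR adjusted p = 0.0398). The gene with the opposite sign was Grb7, 33.9 kb after the Erbb2 start, at 2.11. Erbb2 spans 25.25 kb, and the near end of Mien1 lies 25.2 kb after the Erbb2 start, so their overlap is short. The counting is not stated to use strand, so reads at this overlap, but not elsewhere in the 2 genes, cannot be assigned with certainty. Around Egfr (2 genes, itself included) and Erbb3 (7 genes), none was called by edgeR, and the antisense gene inside Egfr, listed as E230015J15Rik, had 4 to 17 counts per tumor against 431 to 1707 for Egfr.

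**Figure D5:**
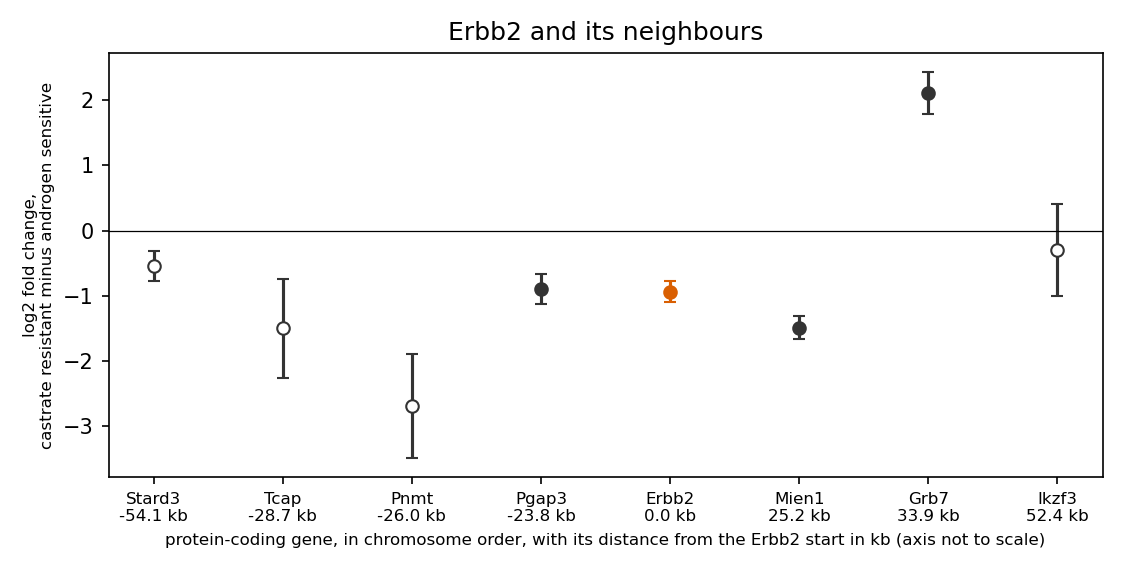
Log2 fold change between castrate resistant and androgen sensitive tumors (4 each) for Erbb2 (orange) and the other tested protein-coding genes within 50 kb, in chromosome order, with 1 SE. Filled symbols have an adjusted p under 0.05; Pgap3, Erbb2 and Mien1 are at -0.90, -0.94 and -1.49, and Grb7 is at 2.11.

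Metastatic and primary tumors were compared to ask whether the family changed with spread, the question for which the tumors were collected. No member was called higher or lower in metastatic tumors. The 3 receptors tested had negative fold changes, and of the 3 ligands tested Tgfa and Hbegf had positive ones. Of the 10 members, 6 passed the filter and 0 were called by edgeR's quasi-likelihood test, where 0% of 17104 genes were called. This fit had no covariate, so differences between the phenotypes stayed in its spread. In all 20 alternatives, phenotype as a covariate among them, 0 genes were called. At an unadjusted p under 0.05 edgeR gave 0 of the 6 members and 459 genes in all (2.68%), and DESeq2 also called 0 genes. The median log2 fold change was -0.45 over the members and -0.03 over all genes.

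Erbb2 had a mean of 47.3 ± 16.1 CPM in primary and 31.1 ± 12.9 CPM in metastatic tumors (SD, n = 4 each), and these groups overlapped. Within each phenotype, from the values above, both metastatic tumors were below both primary tumors. The share of all genes with this order was not counted, so no decrease is read from the order. The log2 fold change was -0.60 (SE 0.33, unadjusted p = 0.107, adjusted p = 0.997). With phenotype as a covariate it was -0.63 with an unadjusted p of 0.00241 and an adjusted p of 0.726. As a replicate block, any of the 4 pairings that could hold within the phenotypes left it at -0.63, with adjusted p between 0.63 and 0.85.

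Egfr was at 28.9 ± 36.5 CPM in primary and 12.9 ± 4.70 CPM in metastatic tumors (SD, n = 4 each), and its log2 fold change of -1.16 (SE 0.75, edgeR adjusted p = 0.997) rested on primary CR2. Without that tumor it was 0.32, and in AS tumors only it was 0.19. Erbb3 had a log2 fold change of -0.30 (SE 0.23) and Egf of -0.60 (SE 0.45), with both groups of each overlapping. Tgfa had a log2 fold change of 0.32 (SE 0.24) and Hbegf of 0.44 (SE 0.47). Groups that do not overlap were found for 1.67% of all genes tested and for none of these members.

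Of the 83 other pathway genes, 77 were tested between metastatic and primary tumors, 0 were called, and 0 had an unadjusted p under 0.05 in edgeR's quasi-likelihood test. The 3 smallest p-values belonged to Egr1, an immediate early transcription factor (log2 fold change 0.99, SE 0.45, unadjusted p = 0.051), Ptpn1, a tyrosine phosphatase (-0.42, SE 0.21, unadjusted p = 0.0802), and Spry4, a feedback inhibitor of RAS signalling (0.58, SE 0.33, unadjusted p = 0.105).

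Whether the difference between metastatic and primary tumors depended on phenotype was tested by the interaction term, and 0 of the 8 members tested were called, where 0% of 18889 genes were called. At an unadjusted p under 0.05, edgeR's quasi-likelihood test gave 0 members and 517 genes (2.74%), and DESeq2 called 2 genes. For Egfr the term was -1.77 (SE 0.98, edgeR adjusted p = 0.964), and it was -0.08 without primary CR2. For Erbb2 it was -0.24 (SE 0.33, edgeR adjusted p = 0.964). Of the other pathway genes, 0 of 78 were called, and edgeR gave the smallest unadjusted p-values to the transcription factor genes Etv4 (-1.85, unadjusted p = 0.00454) and Fos (1.67, unadjusted p = 0.00473) and to Socs5 (-1.20, unadjusted p = 0.0208), a suppressor of cytokine and Egfr signalling.

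For each of the 8 members tested, the genes with the most similar pattern over the 8 tumors were found by Pearson's r of log2(CPM + 1). With so few tumors such values are high for some genes in any large table, and they are descriptions. With a pseudocount of 0.1 in place of 1, all 3 genes were the same for Erbb2 and Hbegf, 1 for Erbb4 and 2 for each of the others. Erbb2 was followed most closely by Arf3 (r = 0.989), Vps53 (0.986) and Hid1 (0.985), and Erbb3 by Strbp (0.985), Slc25a48 (0.981) and Dynlt1c (0.979). Egfr was followed by Sh3bp1 (0.977), Gm11149 (0.975) and Ift46 (0.971), where the Egfr pattern is mainly its height in primary CR2. For Egf these genes were Gabarapl2 (0.977), Ighg1 (0.958) and Sod1 (0.957), for Tgfa Kcnj8 (0.973), Adm (0.970) and Krt222 (0.955), and for Hbegf Btbd10 (0.966), Spnb4 (0.961) and 2010111I01Rik (0.955). For the rarely read Erbb4 they were Gm16094 (0.990), Arpp21 (0.989) and Gm15319 (0.986), and for Ereg Nefm (0.980), Gm13151 (0.968) and Rtl1 (0.968).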

How the data were processed

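RNA from 8 tumors was depleted of ribosomal RNA and sequenced as paired reads of 101 bases from stranded libraries. The authors mapped reads with Bowtie to mm10 and kept unique matches with up to 2 mismatches, and the submitters' processing notes name TopHat2 2.0, CASAVA 1.8.2 and GRCm38. The deposited values are raw counts per gene, and the counting tool, its use of strand and the annotation release are not given in the sources used here. Unique mapping lowers counts of genes with near-identical copies. No other gene's transcript shared 101 bases at 98% identity with 6 of the 10 members, and the matches of the other members were to genes overlapping them. The study's text counts fewer primary tumors than the labels and does not name them, so all 4 were used.

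Counts were tested in R 4.3.3 with edgeR 4.0.16 (TMM factors, filterByExpr, quasi-likelihood test, Benjamini-Hochberg threshold 0.05), and tested on simulated data first. Gene lengths came from GENCODE M21, which held 36343 of the 38115 listed genes. Library identifiers of AS and CR tumors come from separate runs of numbers, so phenotype and any batch cannot be told apart. The members and lists were chosen with earlier results of these data known. All 10 members were named, as were pathway genes called in a comparison, or otherwise the 3 with the smallest p, and the 3 genes most alike to each member. Alternatives were DESeq2 1.42.0, RLE factors, no filter, a filter of 1 CPM in 4 tumors, scaling on protein-coding genes, other covariates, blocks for possible pairings, each phenotype or tumor type alone and each tumor left out. Total counts were 20905806 to 91886163 per tumor. Some markers and 1 motif are not reported here.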

Additional observations from a re-analysis of the deposited data

Results flagged for a closer look

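In 38 groups of 4 tumors, 6 values stood apart from the other 3 of their group by Dixon's criterion. For single measurements without ties chance gives this in about 1 of 20 groups, but the groups share tumors, and 4 of the 6 values are a few counts against 0 in all others, where any count above 0 stands apart by construction. Egfr in primary CR2 stood apart from the other primary tumors and from the other CR tumors, at 83.4 CPM against 6.47 to 15 and 14.9 to 17.4 CPM. Areg in metastatic AS1 stood apart among metastatic and among AS tumors at 0.0257 CPM, which is 2 counts against 0 in the others. Nrg1 stood apart in primary AS1 among primary tumors at 0.0806 CPM (5 counts) and in metastatic CR2 among CR tumors at 0.0809 CPM (2 counts), again against 0 counts in the others.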

How the results depend on the processing

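The call of Erbb2 as lower in CR tumors held in 12 of 16 alternatives and was lost without metastatic AS1, with no covariate (adjusted p = 0.0517) and within primary or metastatic tumors alone, and its sign held in all 16. Genes called between the phenotypes numbered 1899, 3545 with DESeq2, 3098 with no filter, 4 in primary tumors only and 974 in metastatic tumors only, with 399 to 3784 when each tumor was left out (lowest without metastatic AS1, highest without primary CR1). Members called numbered 1, 3 with DESeq2, 2 with no filter, 0 with no covariate, 0 within either tumor type, and 0 to 3 when each tumor was left out. Egfr was called with DESeq2 (adjusted p = 0.0113), with no filter (5.7e-08) and without primary CR1. All 3 of these fits include primary CR2, without which the edgeR log2 fold change of Egfr fell from 1.64 to 0.78.

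When each tumor was left out, Egfr between metastatic and primary tumors ranged from a log2 fold change of -1.48 to 0.32, and it was 0.19 in AS tumors only. In the phenotype comparison, Erbb4 ranged from -0.65 to 0.62, Ereg from -0.32 to 1.87 and Hbegf from -0.18 to 0.72, so the signs of these members rest on single tumors. The interaction called 0 genes, 2 with DESeq2, 217 with no filter and 0 to 82 when each tumor was left out (82 without primary CR2). It called 1 member with no filter, Egfr (adjusted p = 0.0292). With each of the 4 possible pairings as a replicate block, 0 genes were called between metastatic and primary tumors. Other scalings moved the median log2 fold change of all genes by at most 0.05. The cause of these changes was not tested. At 20905806 to 91886163 counts, Areg, Nrg1, Ereg and Erbb4 were too rare for a difference to be seen.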
